A study of Mus musculus with 8 samples.

Results

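The 8 genes described here mark neurons of the olfactory bulb: Cdhr1, Tbx21, Doc2g and Eomes of the mitral and tufted cells, and Sp8, Dlx5, Dlx1 and Dlx2 of the granule and periglomerular cells. They were chosen by name, starting from Cdhr1, which had been picked because of its values on these same arrays, and are 8 of the 19938 genes that the arrays measured under a symbol of their own. Each of the 8 is measured by 1 probe set. Because Cdhr1 was chosen from its difference between the groups, that difference is given as a description without a test; the other 7 genes were tested.

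Mitral and tufted cells are the output neurons of the olfactory bulb: they receive input from the sensory axons of the nose in glomeruli, release glutamate and send their axons to the olfactory cortex. Granule and periglomerular cells are local neurons, mostly GABAergic, that shape this output, and new ones reach the bulb throughout adult life as neuroblasts that migrate from the subventricular zone. Cdhr1 encodes a protocadherin-related cell surface protein of mitral and tufted cells and of photoreceptors, and Doc2g encodes a protein with C2 domains related to the calcium-binding Doc2 proteins of synaptic vesicle release. Tbx21 and Eomes encode T-box transcription factors that also act in T and NK cells, Sp8 encodes a zinc finger transcription factor, and the Dlx genes encode homeodomain transcription factors of developing GABAergic neurons.

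The tissue was brain of adult male mice aged 2 to 4 months, taken up as a lysate of frozen brain, and the arrays were Affymetrix Mouse Gene 1.0 ST arrays. One group is labelled TNF-/- (4 arrays), lacking tumour necrosis factor, and the other TNF+/+ on C57BL/6 (4 arrays), each array being 1 biological replicate by its title. The sources used here give neither the targeted allele nor the strain background of the TNF-/- mice, nor whether the olfactory bulbs stayed with each brain. Values are log2 signals, so that a difference of 1 is a doubling, and 35556 probe sets were measured on each array. The number of arrays limits the precision of every comparison.

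Promoter sequences are shown for Cdhr1 and Doc2g because, among the 8 genes, these mitral cell genes varied most between arrays. They ranked the arrays in different orders, and this difference was not tested. Each line gives the 250 bases before the annotated start, 5′ to 3′ on the gene's strand, from RefSeq on GRCm38.p6: chr14:37098348-37098597 on the minus strand for Cdhr1 and chr19:4003135-4003384 on the plus strand for Doc2g. Capitals mark the core of the T-box motif, GGTGTG or its reverse complement.
Cdhr1: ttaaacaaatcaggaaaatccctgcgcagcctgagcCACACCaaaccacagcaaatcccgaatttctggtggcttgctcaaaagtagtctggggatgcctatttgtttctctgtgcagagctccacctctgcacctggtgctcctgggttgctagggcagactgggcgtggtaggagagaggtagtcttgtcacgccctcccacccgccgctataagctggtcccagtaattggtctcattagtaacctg
Doc2g: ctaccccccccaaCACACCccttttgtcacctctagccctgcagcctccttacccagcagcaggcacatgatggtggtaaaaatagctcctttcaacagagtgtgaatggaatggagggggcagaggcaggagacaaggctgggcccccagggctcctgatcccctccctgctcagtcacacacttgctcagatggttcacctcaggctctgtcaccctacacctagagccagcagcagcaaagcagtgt
The motif lies 214 to 209 bases before the start of Cdhr1 and 237 to 232 bases before that of Doc2g, on the reverse strand in both. Promoter entries matched 7 of the 8 genes (9 entries, 3 of them for Sp8); Dlx5 was not matched. Searched on both strands, GGTGTG occurred in 3 of these 9 entries (Cdhr1, Doc2g and 1 of Sp8) and in 16.3% of all 32851 promoter windows of this length. The homeodomain core TAATTA occurred in 1 of the 9, an Sp8 entry, against 4.84% of all windows, and the GC box GGGCGG in 3 of the 9 (Dlx2, Tbx21 and 1 of Sp8) against 32.7%. These are matches of letters and are not evidence of binding.

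The arrays had similar scales, with medians from 5.03 to 5.11. Signal of the targeted gene Tnf was higher in the arrays labelled TNF-/- (5.67, 5.87, 5.92 and 6.21) than in those labelled TNF+/+ (4.48, 4.93, 4.24 and 4.47), against the labels (limma, adjusted p = 0.0278). The sources used here do not place the probes relative to the deleted part, so all directions are those of the arrays as labelled. TNF+/+ array 1 had a mean of 6.60 over 12 cerebellar genes, against 5.18 to 5.25 on the other 7 arrays. TNF+/+ arrays 3 and 4 stood apart on the first principal component. Defining genes of brain cells were detected, from the microglial P2ry12 (5.32 to 5.70) to the neuronal Syt1, with means over the 8 measured ones from 9.10 to 9.26 per array. Signal in a tissue lysate does not tell fewer cells of a type from less RNA per cell. Nor does it show from which brain region or cell type the signal of the 8 genes came.

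Cdhr1 was the member with the largest difference. Its signal was 5.50, 6.03, 5.74 and 5.06 on the arrays labelled TNF-/- and 5.04, 4.19, 4.16 and 5.07 on those labelled TNF+/+. The groups overlapped only in that TNF-/- array 4 lay just below TNF+/+ array 4, and TNF+/+ arrays 2 and 3 were the lowest of all. The signals of those arrays, 4.19 and 4.16, lay not far above the 25th percentile of signal per array (3.95 to 4.04). The group means were 5.58 ± 0.41 and 4.62 ± 0.51 (SD, n = 4 each), a difference of 0.96, or 1.95-fold. This difference chose the gene and stands as a description. It ran from 0.81 to 1.14 with any 1 array left out and was 0.97 without TNF+/+ arrays 3 and 4.

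Doc2g did not show such a difference. Its signal was 4.73, 5.31, 5.14 and 5.75 on the arrays labelled TNF-/- and 5.69, 4.66, 4.76 and 5.89 on those labelled TNF+/+. Both groups held high and low arrays: TNF+/+ arrays 4 and 1 and TNF-/- array 4 were high, and TNF+/+ arrays 2 and 3 and TNF-/- array 1 were low. The group means were 5.23 ± 0.42 and 5.25 ± 0.63 (SD, n = 4 each), and the difference was -0.02 ± 0.32 (SE; limma, adjusted p = 0.986). Its 95% interval, from -0.75 to 0.71, is wide, so that a moderate difference in either direction could not be detected with these arrays. The highest array was 2.35-fold the lowest.

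Eomes and Tbx21 had low signals. Eomes read 4.10, 4.58, 4.35 and 4.51 on the 4 arrays labelled TNF-/- and 4.39, 4.23, 4.36 and 4.68 on the others, and the groups overlapped. The difference was -0.03 ± 0.13 (SE; limma, adjusted p = 0.939), with a 95% interval from -0.33 to 0.26. Tbx21 read 3.88, 3.98, 3.76 and 3.99 under TNF-/- and 3.98, 3.94, 3.87 and 3.98 under TNF+/+, a spread of 0.22 over all arrays. These values lie around each array's 25th percentile of signal (3.95 to 4.04), and its difference was -0.04 ± 0.07 (SE; limma, adjusted p = 0.848), or 0.0054 after quantile normalization. The 95% interval ran from -0.19 to 0.11, and changes in a gene this dim can be hard to see. The 12 measured genes of T and NK cells, the other cells known for Tbx21 and Eomes, were as dim: their mean per array ran from 3.86 to 3.93 under TNF-/- and from 3.88 to 3.96 under TNF+/+.

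**Figure D1:**
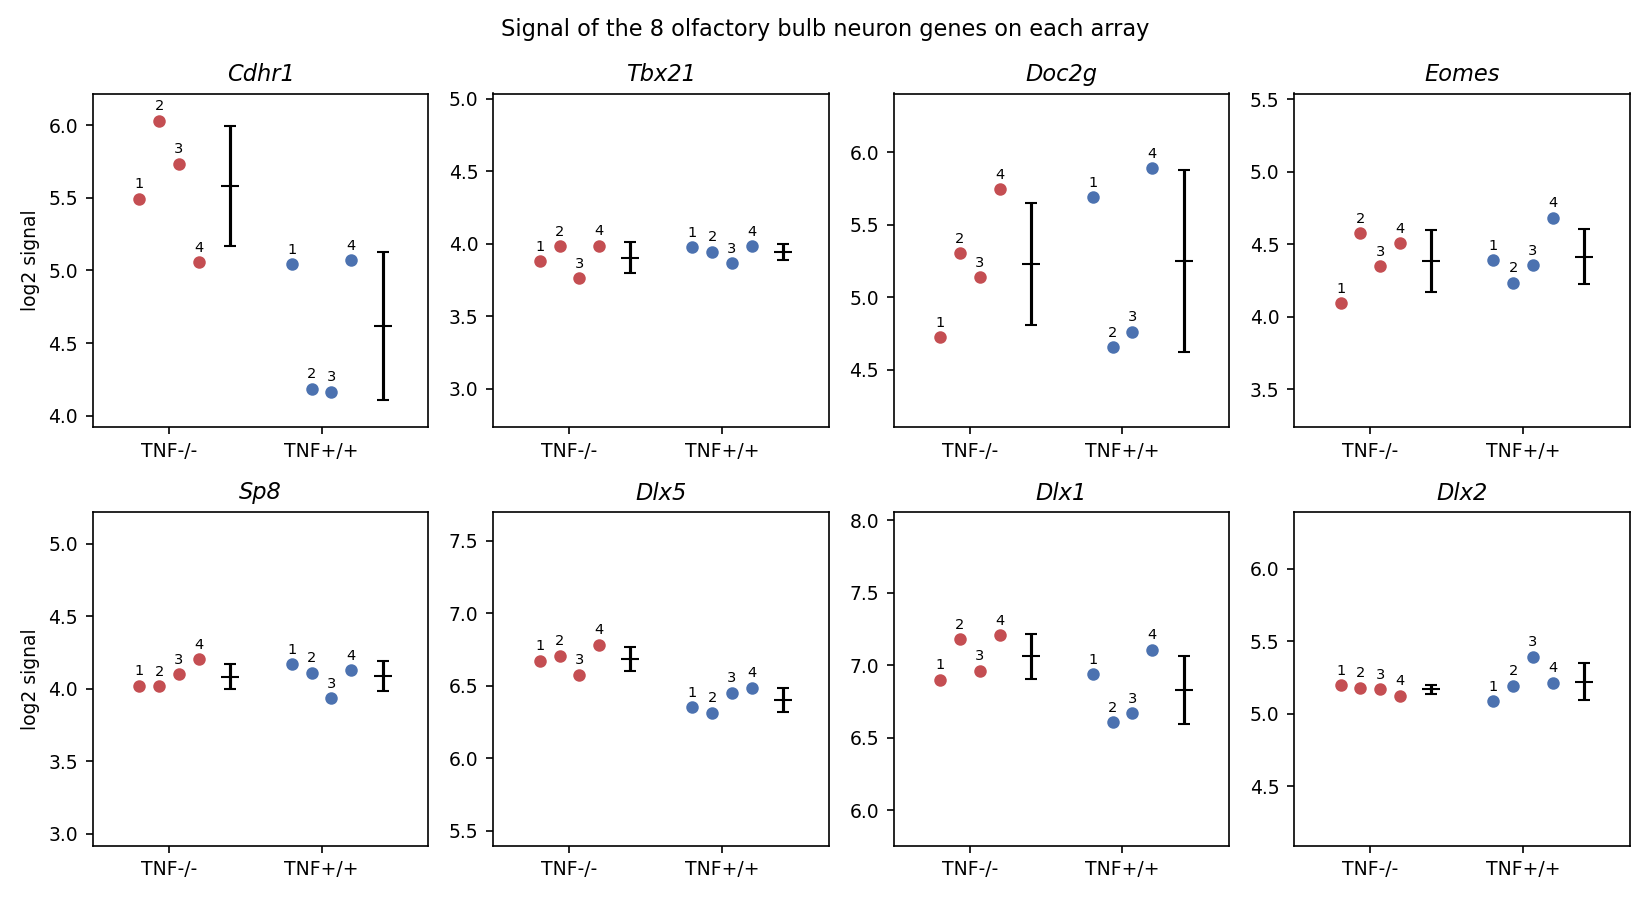
Log2 signal (y axis) of each of the 8 genes on each array (points, numbered by replicate), in red for arrays labelled TNF-/- and blue for those labelled TNF+/+; black marks are group means with SD (n = 4), and all panels span the same range of 2.3 log2 units. Cdhr1 lies higher in the red arrays apart from array 4 (5.06), Doc2g spreads as widely in both groups, and Dlx5 is the gene whose groups do not overlap.

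Among the genes of granule and periglomerular cells, Dlx5 separated the groups. Its signal was 6.67, 6.71, 6.58 and 6.78 on the arrays labelled TNF-/- and 6.35, 6.31, 6.45 and 6.49 on those labelled TNF+/+, so that each of the former lay above each of the latter. The means were 6.68 ± 0.09 and 6.40 ± 0.08 (SD, n = 4 each), and the difference was 0.28 ± 0.07 (SE), or 1.22-fold. It did not pass over all probe sets (limma, unadjusted p = 0.00228, adjusted p = 0.247). Over the alternatives its adjusted p ran from 0.126 to 0.447. Groups that do not overlap were found for 6.63% of all probe sets, 3.15% with the arrays labelled TNF-/- higher and 3.48% with them lower.

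Dlx1, its relative, differed by 0.23 ± 0.13 (SE; limma, adjusted p = 0.541), with a 95% interval from -0.05 to 0.52. Its signal was 6.90, 7.18, 6.96 and 7.21 under TNF-/- and 6.94, 6.61, 6.67 and 7.11 under TNF+/+; the groups overlapped, with TNF+/+ arrays 2 and 3 lowest. Dlx2, the neighbour of Dlx1 in the genome, read 5.20, 5.18, 5.17 and 5.13 under TNF-/- and 5.09, 5.19, 5.39 and 5.21 under TNF+/+, a difference of -0.05 ± 0.07 (SE; limma, adjusted p = 0.796). The 95% interval ran from -0.21 to 0.11. Its highest signal came from TNF+/+ array 3, and without that array the difference was 0.0027. Sp8 read 4.02, 4.01, 4.10 and 4.20 under TNF-/- and 4.17, 4.11, 3.93 and 4.13 under TNF+/+, close to the 25th percentile of each array, and differed by -0.0020 ± 0.07 (SE; limma, adjusted p = 0.994), or by 0.04 after quantile normalization. Its 95% interval ran from -0.17 to 0.16.

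Of the 7 tested genes limma called 0 at an adjusted p under 0.05, against 0.0816% of all probe sets (0.0366% with the arrays labelled TNF-/- higher, 0.045% with them lower), and SAM, the permutation method named in the series' design, also called 0, against 0.149%. At an unadjusted p under 0.05 there was 1 of the 7, Dlx5, against 10.8% of all probe sets (5.92% higher and 4.9% lower). Of the 7 differences 2 were above 0 and 5 below, with a median of -0.02; over all 19938 genes 47.8% were above 0, with a median of -0.01. Neither count sets the 7 genes apart from the rest of the arrays.

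**Figure D2:**
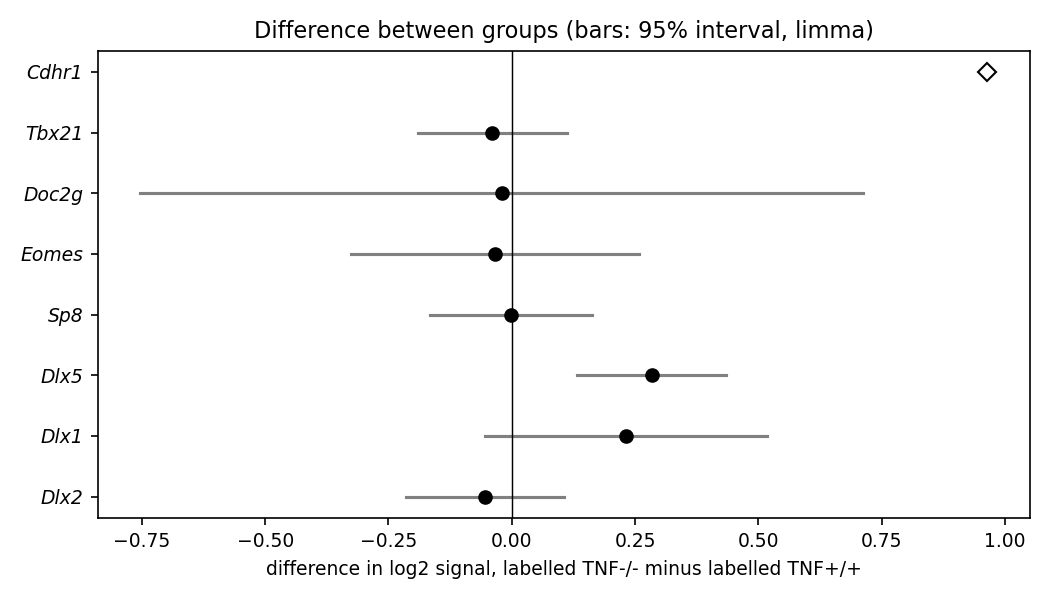
Difference in log2 signal between the arrays labelled TNF-/- and those labelled TNF+/+ (x axis) for each gene (y axis), with limma's 95% interval, not adjusted for the number of probe sets, as a bar (n = 4 arrays each). The open diamond is Cdhr1 (0.96), which was chosen for its difference and carries no interval; of the other genes only the interval of Dlx5 lies wholly above 0.

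Whether Cdhr1 moved with the other bulb genes was asked across the 8 arrays. Over all arrays, where the difference that picked Cdhr1 also enters, Pearson's r with Cdhr1 was 0.74 for Dlx1 and 0.65 for Dlx5 (Spearman's rho 0.60 and 0.67). It was 0.30 for Doc2g, 0.22 for Eomes, 0.06 for Sp8, -0.10 for Tbx21 and -0.49 for Dlx2 (rho 0.21, 0.19, -0.14, 0.14 and -0.21). Among all genes 2.31% had an r with Cdhr1 at least as high as that of Dlx1 and 25.5% at least as high as that of Doc2g. These values are a description, since Cdhr1 was chosen from the same arrays. Without TNF-/- array 2 and TNF+/+ array 3, the 2 arrays farthest from the median of Cdhr1, they were 0.53 for Dlx1, 0.59 for Dlx5 and 0.14 for Doc2g.

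The group difference was then removed by taking each array's deviation from the mean of its group. For Dlx1 r with Cdhr1 was then 0.58 and for Doc2g 0.50 (rho 0.43 and 0.40; two-sided exact permutation within groups, p = 0.198 and 0.229 for r and 0.345 and 0.358 for rho; adjusted over the 7 genes 0.705 for both r and 0.834 for both rho). For Eomes r was 0.46 and rho 0.55 (exact permutation p = 0.302 and 0.21; adjusted 0.705 and 0.834), and for Tbx21 r was 0.17 and rho 0.14 (exact permutation p = 0.705 and 0.788; adjusted 0.851 and 0.970). For Sp8 r was 0.11 and rho -0.02 (exact permutation p = 0.819 and 0.970), for Dlx5 -0.10 and -0.14 (p = 0.851 and 0.788) and for Dlx2 -0.40 and -0.05 (p = 0.611 and 0.938); adjusted p was 0.851 for these r and 0.970 for these rho. None of the 7 passed, 0 of them also at an unadjusted p under 0.05 by this test. For Dlx5 r thus changed from 0.65 over all arrays to a value below 0 once the group means were removed, although it was 0.05 after centring arrays on their medians and 0.03 after quantile normalization.

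These values depended on TNF-/- array 4. Among the arrays labelled TNF+/+, Cdhr1, Doc2g and Dlx1 fell into the same pairs, with arrays 1 and 4 high and arrays 2 and 3 low. Among those labelled TNF-/-, array 4 had the lowest Cdhr1 signal (5.06) and the highest Doc2g and Dlx1 signals (5.75 and 7.21). Without TNF-/- array 4, r of deviations with Cdhr1 was 0.98 for Doc2g, 0.96 for Dlx1 and 0.76 for Eomes , and for Dlx5 it was 0.26. That array goes against the relation, so these higher values follow from leaving it out and are no support for it. With any other single array left out r with Cdhr1 was lower: 0.33 to 0.53 for Doc2g, 0.41 to 0.64 for Dlx1 and 0.24 to 0.54 for Eomes. Without the 2 arrays whose Cdhr1 deviations were farthest from the median, TNF-/- 4 and TNF+/+ 3, r was 0.98 for Doc2g and 0.96 for Dlx1. Without TNF-/- array 2 and TNF+/+ array 3, the farthest by signal, it was 0.40 for both, and without TNF+/+ arrays 3 and 4 it was 0.24 for Doc2g and 0.36 for Dlx1. The arrays labelled TNF+/+ form 2 pairs in these genes, so that within this group the relation rests on 2 levels and not on a gradation.

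**Figure D3:**
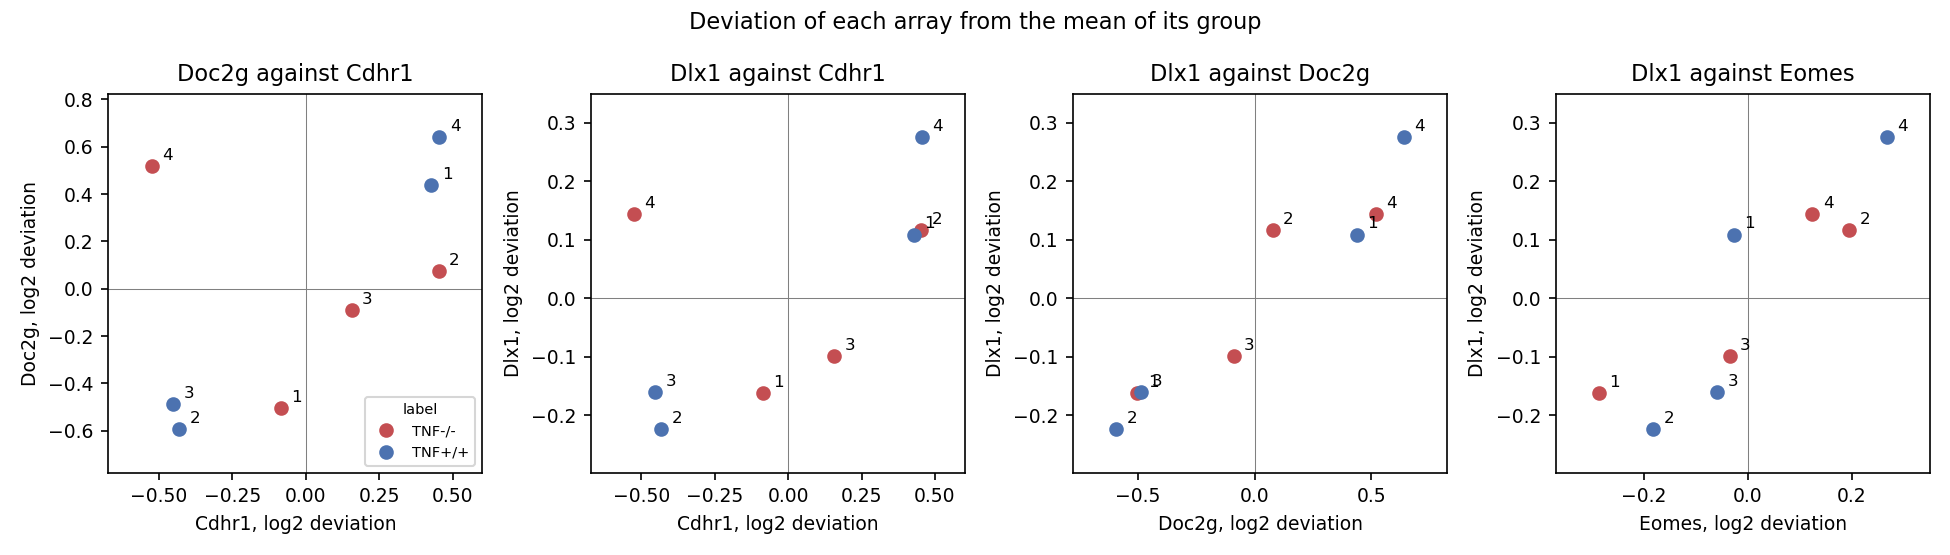
Deviation of each array from the mean of its group in log2 signal, for 4 pairs of genes (one on each axis); red points are arrays labelled TNF-/-, blue those labelled TNF+/+, and digits are replicate numbers. In the panels with Cdhr1 the red array 4 lies at upper left, away from the other 7 arrays. In the panels of Dlx1 against Doc2g and Eomes the 8 arrays tend to rise together (r = 0.96 and 0.88). Against Doc2g the blue arrays form 2 pairs, with 1 and 4 high and 2 and 3 low.

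Among all pairs of the 8 genes, Dlx1 with Doc2g and Dlx1 with Eomes passed. This comparison was added after the values were seen. All 28 pairs of the 8 genes were compared on deviations from group means, and r was above 0 in 20. It was 0.96 for Doc2g with Dlx1 (rho 0.98; exact permutation p = 0.00174 and 0.00347; adjusted over the 28 pairs 0.0486 for both) and 0.88 for Eomes with Dlx1 (rho 0.95; exact permutation p = 0.00347 for both; adjusted 0.0486). Doc2g and Dlx1 ranked the arrays in the same order within each group: 4, 2, 3, 1 under TNF-/- and 4, 1, 3, 2 under TNF+/+. Under TNF+/+ both genes form 2 pairs of arrays, 1 and 4 high and 2 and 3 low, so this relation too rests there mainly on 2 levels. For Doc2g with Eomes r was 0.80 (rho 0.90; exact permutation p = 0.0122 and 0.0139; adjusted 0.0851 and 0.0972), which did not pass. Whether these r differ from those with Cdhr1 was not tested, and without TNF-/- array 4 the latter were 0.76 to 0.98. Without the 2 arrays farthest from the median of the first gene of each pair, these r were 0.93, 0.81 and 0.66.

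Those 2 pairs passed only just. The value of 0.00174 is the smallest that the 576 exchanges within groups can give. These exchanges take arrays of the same number as unrelated, which the titles do not settle. Of the 8 arrays, 6 correlated best with the array of their own number. The assumption may therefore not hold, and the p-values of both pairs depend on it. With fewer arrays the smallest possible p is larger. Neither pair passed with any 1 array left out (exact permutation, adjusted p from 0.0648 to 0.35), which therefore says little about the pairs. Their r changed little: 0.94 to 0.98 for Doc2g with Dlx1 and 0.80 to 0.93 for Eomes with Dlx1. Ranked by r of deviations with Doc2g, Dlx1 was the 8th highest of 19937 genes, and Eomes had 303 genes at or above its r (1.52%). Cdhr1 had 2680 at or above (13.4%).

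For Dlx2 r of deviations was below 0 with 6 of the 7 other genes, from -0.13 with Eomes, and none of its r passed. It was lowest with Sp8, at -0.86 (rho -0.93; exact permutation p = 0.00694 and 0.0122; adjusted 0.0648 and 0.0972). TNF+/+ array 3, highest in Dlx2 and lowest in Sp8, carried part of this: without it r was -0.65. Sp8 is dim and spans 0.27 over all arrays, so this pair rests on small differences in signal.

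**Figure D4:**
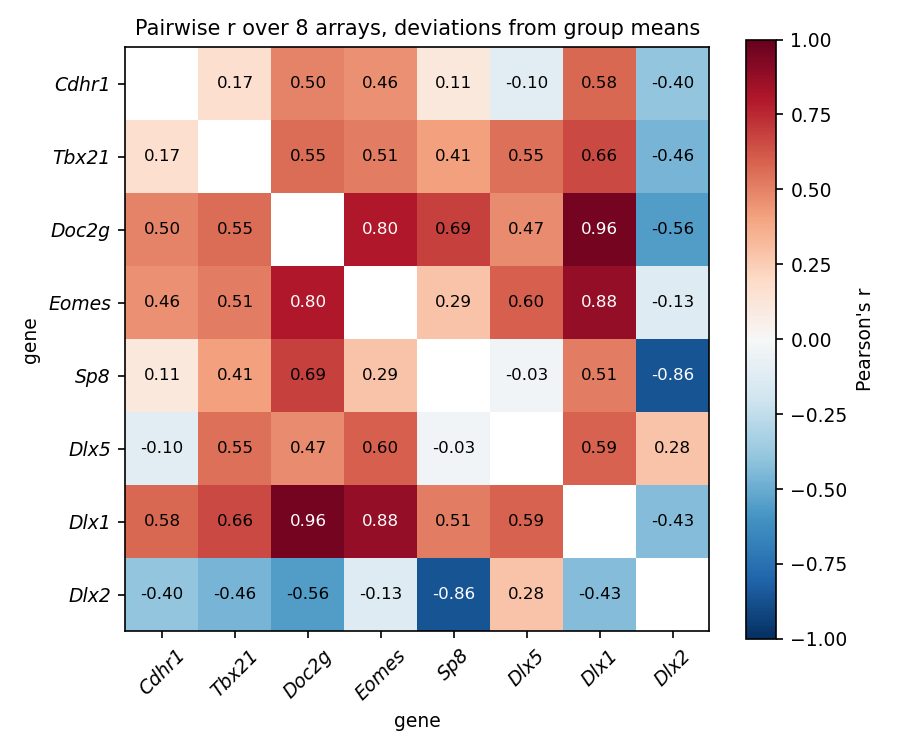
Pearson's r between the genes on both axes over 8 arrays, from deviations from group means; the colour scale runs from -1 (blue) to 1 (red), and each cell gives r. Doc2g, Eomes and Dlx1 form the reddest block (0.80 to 0.96), the row of Cdhr1 is paler (at most 0.58), and Dlx2 is blue against all but Dlx5.

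The genes most like Cdhr1 were sought among the 9969 genes brighter than the median gene, which leaves out dim ones such as Tbx21, Sp8, Eomes and Omp. Those with the highest r over all 8 arrays were Tex10, Mtmr3, Lonrf3, Grpel2, Tgfbr2, Pbx3, Gon4l and Gskip, with r from 0.93 to 0.96. On deviations from group means they were Apba2, Acaa1a, Rnf103, Pdia6, Pdia4, Gskip, Cyp4f13 and Pkm, with r from 0.93 to 0.97. Gskip stood in both sets. With 8 arrays and so many genes, r of this size arises for some genes whatever their function, and no test was made of it.

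The other genes of the same neurons were compared from lists of markers. For every list below, the values to set beside its counts are those over the arrays as a whole. Of all genes 47.8% had a difference above 0, with a median of -0.01, and limma called 0.0816% of all probe sets. Of 9 measured genes of mitral and tufted cells 0 passed in either direction, 6 of the differences were above 0 and the median was 0.06, or -0.018 without TNF+/+ arrays 3 and 4. Slc17a7, which encodes a vesicular glutamate transporter, was at -0.19 ± 0.07 (SE) and Ntng1, which encodes the axon guidance protein netrin-G1, at 0.15 ± 0.06 (limma, adjusted p = 0.412 for both). Slc17a6, a second vesicular glutamate transporter gene, was at 0.20 ± 0.14 (SE; limma, adjusted p = 0.612). Tbr1, the third T-box gene of mitral cells, was at 0.06 ± 0.07 and Reln, which encodes the secreted protein reelin, at 0.11 ± 0.09 (SE). Tbr1, Reln and both transporter genes are also expressed in cortex or other brain regions, so they do not isolate the bulb.

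Of 17 measured genes of granule and periglomerular cells 0 passed, 11 were above 0 and the median was 0.02, or 0.11 without TNF+/+ array 4. Gad2 and Gad1, which encode the GABA-synthesizing enzymes and are expressed by GABAergic neurons in all brain regions, were at 0.32 ± 0.06 and 0.26 ± 0.10 (SE; limma, adjusted p = 0.172 and 0.405), and Gad2 did not overlap between the groups. Groups without overlap were found for 6.63% of all probe sets. Slc32a1, also a GABAergic gene of this list, went the other way, at -0.12 ± 0.06 (limma, adjusted p = 0.532). Tshz1, a transcription factor gene of maturing bulb neurons, was at 0.14 ± 0.07 (limma, adjusted p = 0.52). Dlx6, the genomic partner of Dlx5, was at 0.12 ± 0.11 (SE; limma, adjusted p = 0.701). On deviations from group means the 17 genes had a median r of 0.45 with Doc2g, 13 of them above 0, and of -0.02 with Cdhr1, 8 of them above 0; over all genes the medians were 0.00 and -0.01. Other lists had medians as far from 0: with Doc2g it was 0.42 for brain cells (6 of 8 above 0) and 0.37 for the cerebellum (11 of 12), and with Cdhr1 it was 0.42 for the cerebellum (11 of 12). TNF+/+ array 1 stood out in the cerebellar list, with a mean of 6.60 against 5.18 to 5.25 on the other arrays. It enters the cerebellar medians of r, and values without it are not given here. For the 9 mitral and tufted cell genes the median r was -0.08 with Doc2g (3 above 0) and -0.13 with Cdhr1 (4 above 0). The highest with Doc2g was Synpr, which encodes the vesicle protein synaptoporin, at 0.84, and the lowest Slc32a1, the vesicular GABA transporter gene, at -0.71.

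Of 9 measured genes of neuroblasts and their progenitors 0 passed, and the median was -0.01. Igfbpl1, a gene of young neurons, was at -0.35 ± 0.11 (SE; limma, adjusted p = 0.361), Prokr2, a receptor gene needed for neuroblast migration, at 0.14 ± 0.08 (0.552) and Gsx2, a progenitor transcription factor gene, at -0.08 ± 0.06 (0.66). Of 11 genes of the olfactory nerve and its ensheathing glia 0 passed, and the median was -0.08. Omp, the olfactory marker protein gene of sensory neurons, was dim on every array (3.88 to 4.27). Sox10, which is also expressed in oligodendrocytes, was at -0.26 ± 0.11, Ngfr, the p75 neurotrophin receptor gene, at 0.16 ± 0.07, and Rtp1, an odorant receptor trafficking gene, at -0.11 ± 0.06 (SE; limma, adjusted p = 0.448, 0.459 and 0.569).

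Markers of other cells that carry some of the 8 genes were compared in the same way. Photoreceptors also express Cdhr1. Their 7 measured genes gave 0 calls, all 7 differences were below 0 with a median of -0.09, and the means per array were 3.87 to 3.95 under TNF-/- and 4.01 to 4.03 under TNF+/+. These signals lie near the 25th percentile, and the median was -0.051 after quantile normalization; their part in the values of Cdhr1 was not tested. The lowest p values were those of Nrl (-0.12 ± 0.06), Pde6b (-0.08 ± 0.05) and Gnat1 (-0.09 ± 0.06), with adjusted p by limma of 0.549, 0.562 and 0.604. Of the 12 genes of T and NK cells 0 passed, 9 were below 0 and the median was -0.04 (-0.0038 after quantile normalization), with Cd8a at -0.16 ± 0.07, Cd3e at -0.07 ± 0.06 and Cxcr3 at -0.09 ± 0.08 (SE; limma, adjusted p = 0.448, 0.681 and 0.712).

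The cerebellar genes as a list follow TNF+/+ array 1, though not every gene does. Of 12 genes 0 passed, 11 were below 0 and the median was -0.23, with Slc1a6, a glutamate transporter gene of Purkinje cells, at -0.15 ± 0.06, Pcp2 at -0.31 ± 0.16 and Fat2 at -0.52 ± 0.32 (SE; limma, adjusted p = 0.437, 0.513 and 0.587). Slc1a6 read 4.82 on TNF+/+ array 1 and 4.66 to 4.73 on the others labelled TNF+/+, against 4.51 to 4.67 under TNF-/-. Barhl1 was highest on TNF+/+ array 2 (3.85). Gabra6, a receptor subunit gene of cerebellar granule cells, read 8.21 on TNF+/+ array 1 and at most 4.42 elsewhere. Eomes, which unipolar brush cells of the cerebellum also express, read 4.39 on that array, within the range of the others, and the 3 genes listed for those cells were not measured under symbols of their own. Without TNF+/+ array 1 the cerebellar median was 0.014, the difference of Cdhr1 1.11, that of Doc2g 0.13 and that of Dlx5 0.27. The part of cerebellar tissue in these values was not tested.

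**Figure D5:**
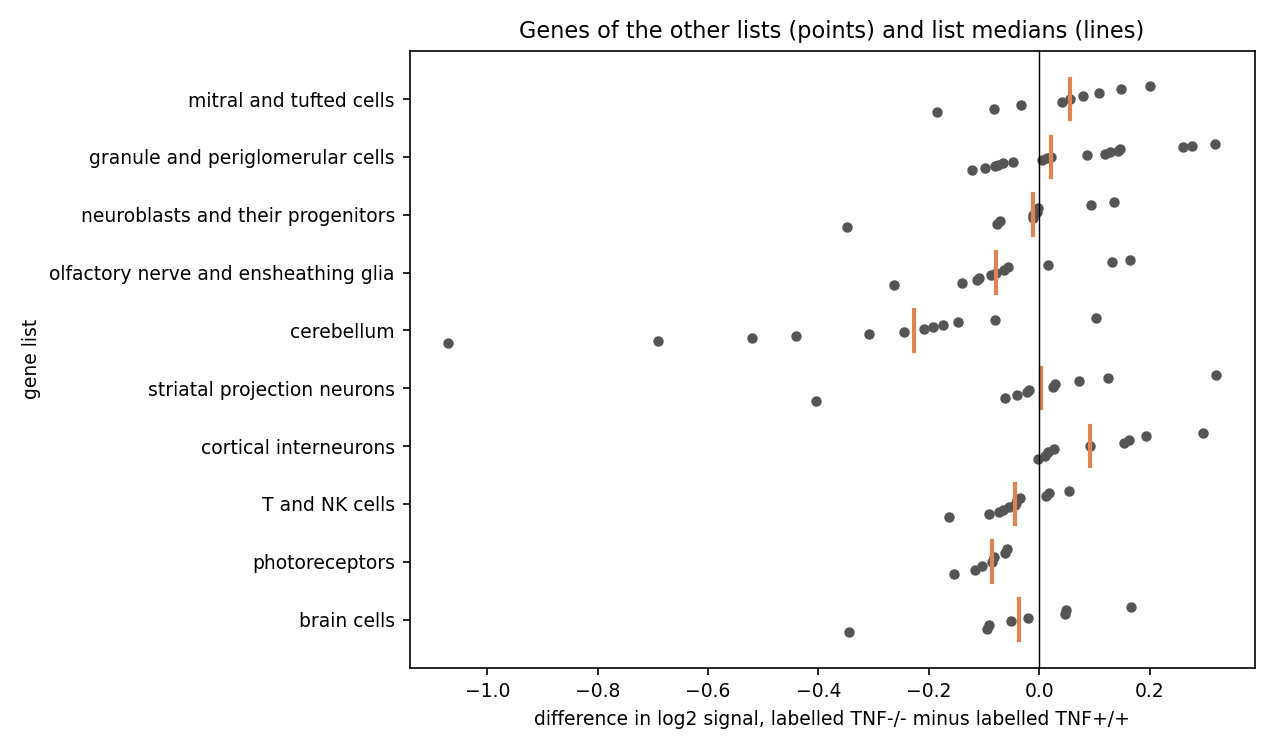
Difference in log2 signal between the arrays labelled TNF-/- and those labelled TNF+/+ (x axis) for each measured gene (points) of 10 marker lists (y axis), with the list median as an orange line. Medians of the mitral and granule cell lists are 0.06 and 0.02, and the widest spread is that of the cerebellar genes (-1.07 to 0.10).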

How the data were processed

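RNA of brain lysates was hybridised to 8 arrays, and the authors' deposited table gives a log2 signal for 35556 probe sets on each. GCOS, GCRMA and Partek appear in the submitters' processing notes, with neither version nor role. The log2 scale follows from the values (2.83 to 14.1), and a genome build was not given in the sources used here. Values were used as deposited, with 0 columns unused. Groups came from the sample titles; as the titles do not say whether arrays came from separate litters or preparations, p-values measure the spread between these arrays.

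Names came from the platform's annotation, in which 21789 probe sets pair with 1 symbol, 1621 with several and 12146 are not listed. A gene is represented by its brightest probe set. Of 115 genes in 11 marker lists, 104 were measured in this way.

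The comparison of groups used limma 3.58.1 (R 4.3.3) over all probe sets (lmFit, eBayes, two-sided, Benjamini-Hochberg), differences being arrays labelled TNF-/- minus arrays labelled TNF+/+; SE is the moderated standard error. SAM was rebuilt with 70 assignments. Both were also run on simulated data, and the outcome is not reported here. Correlations used scipy 1.17.1 and numpy 2.4.6 in Python 3.11.15; for deviations from group means, arrays were exchanged within groups in all 576 ways.

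Named genes are the 8 members, Tnf, the 3 genes of each list with the smallest p, and the 8 genes most like Cdhr1 by each measure; Tbr1, Reln, Dlx6, Omp, Gabra6, Synpr and Slc32a1 were named after their values were seen. The members and lists were chosen with earlier results of these data known, and the promoter motifs and the 28 pairs were added after the values were seen. Cdhr1 was to be tested for correlation over all arrays as well; those p-values are left out because the difference that chose it enters them. Alternatives were other scalings, filters, variance models and weights, SAM, the replicate number as a block, and leaving out arrays; a second probe set could not be tried because each member has 1.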

Additional observations from a re-analysis of the deposited data

Results flagged for a closer look

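Of 98 sets of 4 arrays examined, 7 held an array far from its fellows, and chance gives about 1 in 20, or 4.9. None of the 8 bulb genes was among them. In the arrays labelled TNF+/+, array 1 was high in Tshz1 (7.07), Pcp2 (4.86), Fat2 (5.50) and the mean of the cerebellar list (6.60), and array 3 was low in Lhx6 (4.47). In the arrays labelled TNF-/-, array 3 was low in Cd3e (3.65) and array 4 in the mean of the list of striatal projection neurons (8.38). TNF-/- array 4 is also the array with low Cdhr1 beside high Doc2g and Dlx1.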

How the results depend on the processing

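None of the 7 tested members and no gene of the lists was called under any alternative tried. The difference of Cdhr1 was not tested. At an unadjusted p under 0.05 limma gave 1 of the 7 tested members under each alternative except without TNF+/+ replicate 4, where it gave 2. Limma called 29 probe sets in all, 63 among probe sets with 1 symbol, 0 without TNF+/+ arrays 3 and 4 (3566 before adjustment) and 1 to 20 with 1 array left out, the 1 without TNF+/+ replicate 3; SAM called 53. With the replicate block limma called 0 probe sets (4025 at an unadjusted p under 0.05), and Dlx5 had an adjusted p of 0.313. The labels do not say what arrays of the same number share. Correlations of deviations of same-numbered arrays were 0.07, 0.11, 0.10 and 0.07, and 6 of 8 arrays correlated best with their own number. Whether a number marks a shared preparation or batch was not tested.

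Small differences changed sign. After quantile normalization Tbx21 was at 0.0054 and Sp8 at 0.038; with array weights Doc2g was at 0.0015; without TNF+/+ arrays 3 and 4 Doc2g was at 0.056, Eomes at 0.070 and Dlx2 at 0.027. With 1 array left out the differences ran from -0.22 to 0.19 for Doc2g, -0.10 to 0.061 for Eomes, -0.053 to 0.026 for Sp8, -0.067 to 0.0070 for Tbx21 and -0.10 to 0.0027 for Dlx2. The r of deviations with Cdhr1 also changed sign: for Dlx5 it was 0.034 after quantile normalization and 0.052 after centring arrays; without the 2 arrays farthest from the median of Cdhr1 it was -0.40 for Tbx21 and -0.18 for Sp8; without TNF+/+ arrays 3 and 4 it was -0.076 for Tbx21 and -0.40 for Sp8. With 1 array left out it ran from -0.42 to 0.26 for Dlx5, -0.056 to 0.56 for Tbx21, -0.39 to 0.61 for Sp8 and -0.61 to 0.017 for Dlx2. The median over alternatives ran from -0.018 to 0.107 for the mitral and tufted cell list, 0.0031 to 0.112 for the granule and periglomerular cell list, -0.53 to 0.014 for the cerebellar list and -0.108 to -0.051 for the photoreceptor list. The cause was not tested. Without TNF+/+ arrays 3 and 4, r was 0.94 for Doc2g with Dlx1 and 0.85 for Eomes with Dlx1 (exact permutation, adjusted p = 0.292 for both). With fewer arrays the smallest possible p is larger, so this adjusted p says little about the pairs.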

Other observations

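Other GABAergic neurons were described from marker lists beside those of the bulb. Of 9 measured genes of cortical interneurons 0 passed, 8 differences were above 0 and the median was 0.09. Over all genes 47.8% of differences were above 0 and the median was -0.01. The mean of the cortical interneuron list per array was 6.66 to 6.71 under TNF-/- and 6.55 to 6.64 under TNF+/+. The part of these neurons in the values of the Dlx genes was not tested. Adarb2, a gene of interneurons of caudal origin, was at 0.30 ± 0.09, Lhx6, a transcription factor gene of interneurons from the medial ganglionic eminence, at 0.15 ± 0.08 and Sox6 at 0.16 ± 0.08 (SE; limma, adjusted p = 0.348, 0.501 and 0.512). Of 10 measured genes of striatal projection neurons 0 passed, 5 were above 0 and the median was 0.0029. Gpr6, a receptor gene of the indirect pathway, was at -0.40 ± 0.10, Isl1, a transcription factor gene of the direct pathway, at 0.32 ± 0.11 and Rgs9 at 0.12 ± 0.06 (SE; limma, adjusted p = 0.259, 0.372 and 0.467). Gpr6 and Isl1 did not overlap between groups, as was so for 6.63% of all probe sets. The other list genes without overlap were Slc17a7, Ntng1, Gad2, Igfbpl1, Fat2, Cd8a and Pde6b. Among brain cell genes, Gfap was at -0.34 ± 0.12, P2ry12 at 0.17 ± 0.09 and Mbp at -0.09 ± 0.06 (SE; limma, adjusted p = 0.381, 0.543 and 0.592).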
